A study of Homo sapiens with 18 samples.

Results

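The 8 genes described here, PLA2G4A, PTGS1, PTGS2, PTGES, PTGES2, PTGES3, HPGD and PTGR1, make or break down prostaglandins. They are 8 of the 58302 genes in the RNA-seq table and were listed by symbol. The list was chosen by the low RNA-seq level of PTGES in the NAT10-KD cells, so that difference is given as a description without a test. PANC-1 cells, an established line from a human pancreatic ductal carcinoma, received lentivirus with a control shRNA vector (shCtrl) or with an shRNA against NAT10 (shNAT10). The labels call the control vector empty, while the study's oligonucleotide list names a non-targeting shRNA, and which of them the controls carried was not settled here. NAT10 is the acetyltransferase that writes N4-acetylcytidine (ac4C) on RNA. Both groups carry a lentiviral vector, both come from a single line, and NAT10 was lowered but not deleted. Messenger RNA of 3 shCtrl and 3 shNAT10 samples was sequenced, and 3 acRIP and 3 input libraries per group were made from fragmented total RNA. The labels do not say whether replicates were separate cultures, so p-values measure the spread between these libraries only.

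Prostaglandin synthesis starts when a phospholipase A2 such as the product of PLA2G4A frees arachidonic acid from membrane phospholipids. The cyclooxygenases encoded by PTGS1 and PTGS2 turn arachidonic acid into PGH2, and terminal synthases turn PGH2 into the single prostanoids. PTGES, PTGES2 and PTGES3 were named as PGE2 synthases, of which the membrane enzyme encoded by PTGES is inducible in inflammation and in many tumors. HPGD oxidises PGE2 to an inactive 15-keto form, and PTGR1 reduces the double bond of 15-keto prostaglandins and of leukotriene B4 metabolites.

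Of the 8 mRNAs, 5 carried an acRIP-seq peak in shCtrl cells, and stretches of these peaks are shown first. A peak is a stretch of mRNA enriched in the ac4C immunoprecipitate over input, and each group has 1 list made from its replicates together. Sequences were read 5′ to 3′ from GENCODE v29 transcripts on GRCh38. The peak on PTGES (ENSG00000148344, chromosome 9, 129738331 to 129753047, minus strand) was listed in both groups, with 297 bases in shCtrl and 208 bases in shNAT10 cells, of which 149 were in both versions. Of the shCtrl version 251 bases lay in the coding sequence of the main transcript and 46 in an exon used only by a PTGES transcript with no annotated coding sequence. Of the shNAT10 version 103 bases were coding and 105 lay in that exon, so it had less of its length in coding sequence. Within the peaks, 24 of 81 words of 25 bases in that exon occurred in transcripts of other genes, against 0 of 227 such words in the coding exons.

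For 3 of the other genes the coding stretches that carried a peak are printed. The PTGR1 stretch is the coding part shared by both groups, 231 bases between chr9:111583527-111586165 on the minus strand, in capitals because every base lay in a peak of each group. The PTGS1 stretch is the second shNAT10 peak of that gene, 211 coding bases between chr9:122377934-122378561 on the plus strand, also in capitals because every base lay in a shCtrl peak too. The PLA2G4A stretch is the stronger of its shCtrl peaks, 181 coding bases between chr1:186894101-186911279 on the plus strand, in lower case because shNAT10 cells had no peak on this gene.

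PTGR1, shared coding part: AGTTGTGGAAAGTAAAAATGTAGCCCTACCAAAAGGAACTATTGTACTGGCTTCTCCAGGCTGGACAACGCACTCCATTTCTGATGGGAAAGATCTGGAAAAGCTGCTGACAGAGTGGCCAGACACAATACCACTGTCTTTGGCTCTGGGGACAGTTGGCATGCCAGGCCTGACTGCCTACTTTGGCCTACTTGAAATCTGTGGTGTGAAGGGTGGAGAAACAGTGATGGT

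PTGS1, shNAT10 peak 2: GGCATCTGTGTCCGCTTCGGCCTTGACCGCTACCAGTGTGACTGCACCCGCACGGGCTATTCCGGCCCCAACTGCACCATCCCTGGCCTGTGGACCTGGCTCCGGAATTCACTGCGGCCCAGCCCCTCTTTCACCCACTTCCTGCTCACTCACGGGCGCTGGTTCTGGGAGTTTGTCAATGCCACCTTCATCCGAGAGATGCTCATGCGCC

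PLA2G4A, shCtrl peak 1: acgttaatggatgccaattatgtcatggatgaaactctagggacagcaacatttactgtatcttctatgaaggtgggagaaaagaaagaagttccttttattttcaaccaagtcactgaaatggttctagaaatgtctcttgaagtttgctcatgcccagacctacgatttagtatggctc

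RNA-seq values are FPKM, fragments per kilobase of transcript, scaled to the reads of the library, so levels of different genes are given per length. Libraries held 15831720 to 23521762 reads. NAT10 was at 29.3 ± 2.01 FPKM (SD, n = 3) in shCtrl and 8.09 ± 0.30 FPKM in shNAT10 cells, which on the log2 scale is a difference of -1.84 ± 0.08 (SE, adjusted p = 3.9e-05, limma), with no overlap of the groups (exact permutation test, two-sided p = 0.1, the smallest that 3 against 3 allows). The 6 markers of a ductal tumor line were all detected, at mean levels from 6.68 to 1253 FPKM, of which KRT7, KRT8, KRT18 and KRT19 fell, SOX9 rose and VIM did not pass the test. Markers of other pancreatic and stromal cells were low. Their summed levels over the 6 libraries lay between 0.0359 and 0.0614 FPKM for 5 acinar, 0 and 0.344 FPKM for 4 endocrine, 1.41 and 2.93 FPKM for 5 leukocyte, and 0.0720 and 0.117 FPKM for 3 endothelial markers. INS, GCG, CPA1, AMY2A and CD3E were at 0 in every library. The 4 fibroblast markers summed to between 17.3 and 34.0 FPKM, nearly all of it COL1A1, which fell by 0.69 on the log2 scale (adjusted p = 0.0018, limma), and most of the leukocyte sum was CD14, which fell by 0.75 (adjusted p = 0.0086). The part of these shifts in the results that follow was not tested. In bulk RNA, fewer cells with a transcript and less of it per cell cannot be told apart.

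The 8 genes differed widely in mRNA level, and 4 of them reached the minimum set for testing, 1 FPKM in 3 or more libraries. In shCtrl cells the order ran from PTGES3 through PTGES2, PTGR1 and PTGES to HPGD and PTGS1, with PTGS2 and PLA2G4A at or near 0. HPGD and PTGS1 overlapped in level, as did PTGS2 and PLA2G4A, and the lowest PTGES2 library lay barely above the highest PTGR1 library. In shNAT10 cells PTGR1 stood above PTGES2 in each library. The order of genes close in level depends on the transcript length behind each FPKM. The mRNAs named for PGE2 synthases were thus above those of PLA2G4A and of both cyclooxygenases, which stayed under 1 FPKM in every library, as did HPGD.

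**Figure D1:**
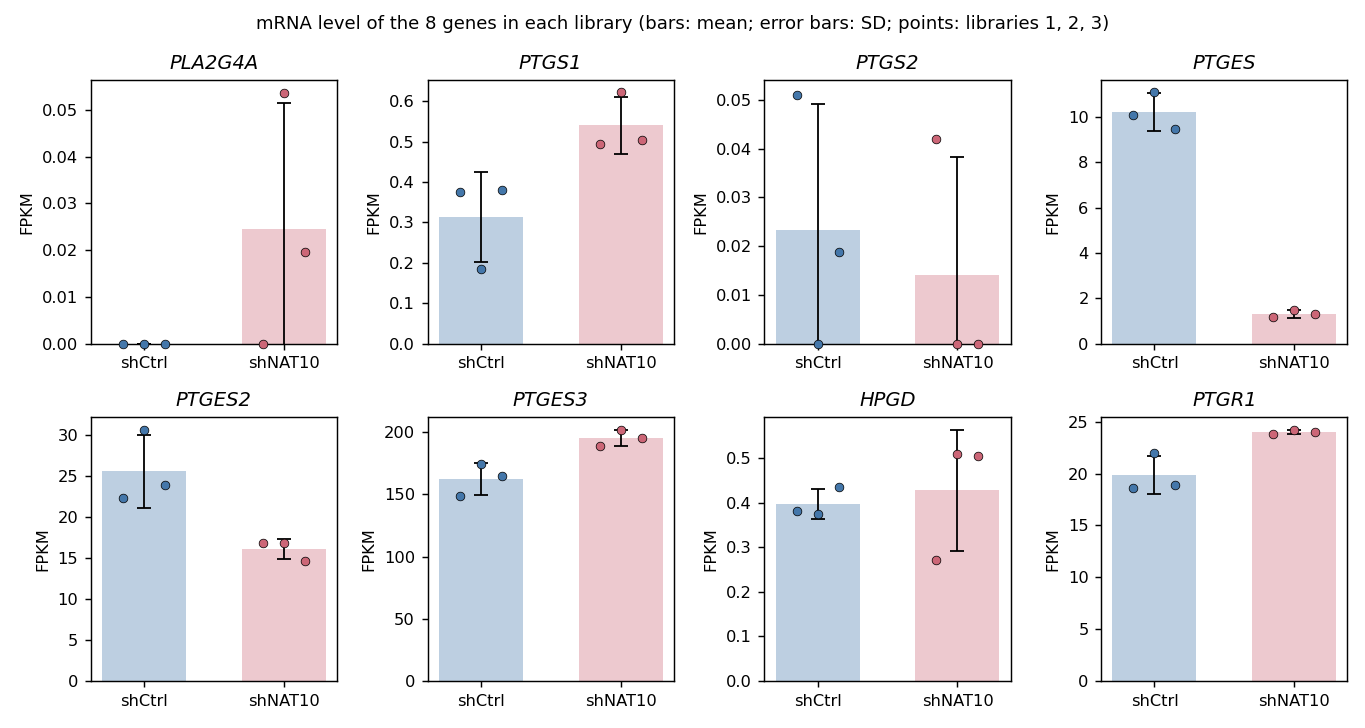
FPKM of each of the 8 genes in the 6 RNA-seq libraries, with bars at the mean of 3 libraries, error bars of 1 SD and a point for each library. PTGES was at 10.2 ± 0.83 FPKM in shCtrl and 1.30 ± 0.16 FPKM in shNAT10 cells, PTGES2 was lower and PTGES3 and PTGR1 were higher in every shNAT10 library, and each panel has its own scale from 0.

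Release of arachidonic acid by the cytosolic phospholipase was hardly represented. PLA2G4A (ENSG00000116711, chromosome 1, 186828953 to 186988981, plus strand) had 0 reads in all 3 shCtrl libraries and 0, 3 and 1 reads in the 3 shNAT10 libraries. A library with a count of 0 allows up to 3 reads, which for this gene is 0.0444 to 0.0659 FPKM depending on the library and covers counting error only. A difference between the groups was not detectable at this depth.

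The cyclooxygenase mRNAs were low as well. PTGS1 (ENSG00000095303, chromosome 9, 122370530 to 122395703, plus strand), the constitutive enzyme of many tissues, was at 0.375, 0.184 and 0.380 FPKM in shCtrl libraries 1 to 3 and at 0.494, 0.622 and 0.505 FPKM in shNAT10 libraries 1 to 3. These values come from 20 to 48 reads per shCtrl library and 42 to 65 reads per shNAT10 library. All 3 shNAT10 libraries lay above all 3 shCtrl libraries, but the level was too low for the main fit. Without a filter the log2 fold change was 0.67 ± 0.32 (SE, adjusted p = 0.25, limma). With voom on the recovered reads of genes with at least 10 reads in at least 3 libraries, a fit added after the data had been seen, it was 0.87 ± 0.29 (adjusted p = 0.039). PTGS2 (ENSG00000073756, chromosome 1, 186671791 to 186680427, minus strand), the inducible cyclooxygenase, had 4, 0 and 2 reads in shCtrl libraries 1 to 3 and 3, 0 and 0 in shNAT10 libraries 1 to 3. The groups overlapped, a library with 0 reads allows 0.0328 to 0.0376 FPKM, and no difference was detectable.

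PTGES, the inducible membrane PGE2 synthase, was at 10.1, 11.1 and 9.45 FPKM in shCtrl libraries 1 to 3 and at 1.15, 1.46 and 1.30 FPKM in shNAT10 libraries 1 to 3. Every shNAT10 library was far below every shCtrl library, and the spread within each group was small against the gap. The means were 10.2 ± 0.83 and 1.30 ± 0.16 FPKM (SD, n = 3), so shNAT10 cells held 12.8% of the shCtrl level, a 7.83-fold difference. The reads behind them summed to 1161 in shCtrl and 130 in shNAT10 cells. On the log2 scale of FPKM plus 0.1 the difference was -2.88 ± 0.12 (SE), and 3 of the 12982 genes in the fit had a lower value. With a pseudocount of 1 it was -2.28, since the level in shNAT10 cells is close to 1 FPKM. As the list was selected on this value, no test is attached to it. Of the 1728 words of 25 bases in its main transcript, 157 (9.09%) also occur in transcripts of other genes.

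PTGES2 (ENSG00000148334, chromosome 9, 128120693 to 128128462, minus strand) encodes a second, membrane-associated protein named as a PGE2 synthase. It was at 22.3, 30.7 and 23.9 FPKM in the shCtrl libraries and at 16.9, 16.8 and 14.7 FPKM in the shNAT10 libraries. All shNAT10 libraries were below all shCtrl libraries, of which library 2 stood highest. The mRNA fell by 0.65 ± 0.13 on the log2 scale (SE, adjusted p = 0.0071, limma), to 63.0% of the shCtrl mean. Without shCtrl library 2 the difference was -0.52 (adjusted p = 0.0011).

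PTGES3 (ENSG00000110958, chromosome 12, 56663341 to 56688408, minus strand) encodes p23, a co-chaperone of HSP90 that was also described as a cytosolic PGE2 synthase. It was the most abundant of the 8 mRNAs, at 149, 174 and 165 FPKM in the shCtrl libraries and at 189, 202 and 195 FPKM in the shNAT10 libraries. The groups did not overlap, with mean levels of 162.6 ± 12.9 and 195.4 ± 6.39 FPKM (SD, n = 3). The log2 fold change was 0.27 ± 0.08 (SE, adjusted p = 0.028, limma). The call depended on which libraries were in the fit and on the filter. It passed without shCtrl library 1 (0.21, adjusted p = 0.046) and without shCtrl library 2 (0.32, adjusted p = 0.0027), but not without shCtrl library 3 (0.28, adjusted p = 0.078), without shNAT10 libraries 1, 2 or 3 (0.29, 0.24 and 0.27, adjusted p = 0.07, 0.11 and 0.093) or without a filter (0.27, adjusted p = 0.078). The gene has near-identical processed copies: 383 of the 2053 words of 25 bases in its transcript, 18.7%, occur in other genes, most often in PTGES3P1, which was listed at 11.0 to 12.9 FPKM in shCtrl and 13.6 to 17.3 FPKM in shNAT10 libraries. Reads within the shared stretches could not be assigned to the gene or to a copy here. PTGES3P1 was listed with 108 to 148 reads per library, beside 7585 to 11540 for PTGES3.

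On the side of breakdown, HPGD (ENSG00000164120, chromosome 4, 174490177 to 174523154, minus strand), the main enzyme that inactivates PGE2, was at 0.381, 0.375 and 0.435 FPKM in the shCtrl libraries and at 0.271, 0.510 and 0.504 FPKM in the shNAT10 libraries. The groups overlapped, with shNAT10 library 1 lowest and the other two highest, and 13 to 31 reads per library behind the values. The voom fit on genes with at least 10 reads gave a log2 fold change of 0.09 ± 0.29 (SE, adjusted p = 0.83). PTGR1 (ENSG00000106853, chromosome 9, 111549722 to 111599893, minus strand) was at 18.7, 22.0 and 18.9 FPKM in the shCtrl libraries and at 23.8, 24.2 and 24.0 FPKM in the shNAT10 libraries. Every shNAT10 library was above every shCtrl library, and the 3 shNAT10 values were close together. The mRNA rose by 0.28 ± 0.08 on the log2 scale (SE, adjusted p = 0.03, limma). Of the 1383 words of 25 bases in its transcript 122 (8.82%) occur in 1 other gene. The call was kept without shCtrl library 2 (0.35, adjusted p = 0.00078), the highest of its group. It was lost without shCtrl library 1 (0.24, adjusted p = 0.063), without shCtrl library 3 (0.25, adjusted p = 0.11), without shNAT10 libraries 1, 2 or 3 (0.28, 0.27 and 0.28, adjusted p = 0.086, 0.1 and 0.093) and without a filter (0.28, adjusted p = 0.053).

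Beside PTGES, then, 3 of the 8 genes passed the test, 1 lower (PTGES2) and 2 higher (PTGES3 and PTGR1). Of all 12982 genes tested 21.2% were lower and 20.8% higher at an adjusted p under 0.05. The groups did not overlap for PTGES and PTGES2, lower in shNAT10 cells, and for PTGES3 and PTGR1, higher in shNAT10 cells. Of all tested genes 28.6% had every shNAT10 library below, and 27.9% above, every shCtrl library. Being called in either direction was therefore common among all genes. PTGES, PTGES2, PTGES3 and PTGR1 were each highest, among the shCtrl libraries, in library 2, whose summed FPKM over all genes was 390761 against 347942 and 361185 in the other two and 337414 to 341644 in the shNAT10 libraries. Scaled to a common sum (TPM), the median of all tested genes moved from -0.01 to 0.10, 61.8% rather than 49.5% of calls were higher, and the differences of PTGES2, PTGES3 and PTGR1 were -0.55, 0.38 and 0.39 (adjusted p = 0.0054, 0.0016 and 0.003, limma).

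Ratios within a library do not depend on the scaling between libraries. PTGES3 was 6.67, 5.67 and 6.89 times as high as PTGES2 in the shCtrl libraries and 11.2, 12.0 and 13.3 times as high in the shNAT10 libraries. PTGES2 was 1.20, 1.40 and 1.26 times as high as PTGR1 in the shCtrl libraries and 0.710, 0.694 and 0.613 times as high in the shNAT10 libraries. Both ratios separated the groups completely (exact permutation test of log2 ratios, two-sided p = 0.1 for each, the smallest that 3 against 3 allows). This separation was given in advance, as PTGES2 was lower and PTGES3 and PTGR1 were higher in every shNAT10 library. The ratios are therefore a description and not a further test. By FPKM, PTGES2 and PTGR1 thus changed places in the order of levels. This order depends on the lengths behind the FPKM, 2331 bases for PTGES2 and 2298 bases for PTGR1. The PTGR1 transcript with the longest coding sequence has 1407 bases, and its use would raise the level of PTGR1 in every library. The shift of the ratio between the groups does not depend on these lengths. PTGES was 0.403 ± 0.046 times as high as PTGES2 in shCtrl and 0.0811 ± 0.0114 times as high in shNAT10 cells (SD, n = 3), given as a description since PTGES chose the list.

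The other genes of the pathway were examined in 10 lists by role, with 96 different genes in all, of which 54 passed the filter on low values. Of these 17 fell, 13 rose and 24 did not pass the test, with a median log2 fold change of -0.14 beside -0.01 for all genes tested. Of all genes tested, as given above, 21.2% were lower and 20.8% higher.

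Among the other terminal prostanoid synthases all 3 that were tested fell, with a list median of -1.04, and the other 5 of the 8 listed were under the filter. PRXL2B, a prostaglandin F synthase, went from 11.9 ± 1.05 to 4.42 ± 0.14 FPKM (log2 fold change -1.41 ± 0.09, adjusted p = 9.1e-05, limma). AKR1B1, an aldose reductase that also makes PGF2 alpha, went from 32.8 ± 4.15 to 15.9 ± 0.74 FPKM (-1.04 ± 0.10, adjusted p = 0.00041). CBR1, a carbonyl reductase that converts PGE2, fell by 0.46 on the log2 scale (adjusted p = 0.036).

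Among genes that release arachidonate, 2 of the 6 tested fell and 2 rose. The secreted phospholipase PLA2G12A had the largest rise of the list, from 2.67 ± 0.24 to 8.26 ± 0.22 FPKM (1.60 ± 0.09, adjusted p = 6.9e-05, limma), and DAGLB, a diacylglycerol lipase and the most abundant of the list, fell by 0.55 (adjusted p = 0.0021). Of the genes that return arachidonate to phospholipids, 2 of 8 fell and 2 rose, with a list median of -0.09, and the most abundant, MBOAT7, fell by 0.27 (adjusted p = 0.022). Of 4 other genes of breakdown and reduction, 1 fell and 2 rose, among them PTGR3 at 9.63 ± 0.85 and 12.5 ± 0.09 FPKM (0.37 ± 0.08, adjusted p = 0.011).

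Of the prostanoid receptors only 2 of 9 passed the filter. PTGER4, which encodes the PGE2 receptor EP4, rose from 5.36 ± 0.81 to 8.76 ± 0.28 FPKM (0.71 ± 0.12, adjusted p = 0.0036, limma), and TBXA2R, the thromboxane receptor, fell by 0.83 (adjusted p = 0.013). Of 2 tested transporters 1 fell, and ABCC4, which exports prostaglandins, was at 22.7 ± 3.25 and 20.9 ± 0.14 FPKM (-0.10 ± 0.11, adjusted p = 0.47). In the neighbouring lipoxygenase branch 2 of 5 tested genes fell and 0 rose, and LTA4H, the most abundant, was at 18.5 ± 0.93 and 17.4 ± 0.72 FPKM (-0.09, adjusted p = 0.35).

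PTGES belongs to a family of small membrane enzymes called MAPEG. Of 4 tested relatives 2 fell and 0 rose, with a list median of -0.44. ALOX5AP, which presents arachidonate to 5-lipoxygenase and counts in both this and the lipoxygenase list, went from 2.00 ± 0.39 to 0.511 ± 0.053 FPKM (-1.77 ± 0.22, adjusted p = 0.0011, limma). MGST3, the most abundant relative, was lower in all shNAT10 libraries but did not pass (-0.30 ± 0.12, adjusted p = 0.075).

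HSP90 and its co-chaperones, the partners of the PTGES3 product, were abundant, and of 10 tested genes 1 fell and 3 rose. FKBP4 rose from 27.4 ± 3.70 to 55.0 ± 2.53 FPKM (1.01 ± 0.10, adjusted p = 0.00051, limma), and FKBP5 rose from 2.70 ± 0.62 to 6.96 ± 0.20 FPKM (1.35 ± 0.15, adjusted p = 0.00076). HSP90AB1, the most abundant, was at 995 ± 25.1 and 972 ± 8.51 FPKM (-0.03, adjusted p = 0.67). Of 11 tested genes known to regulate PTGES or PTGS2 transcription 3 fell and 3 rose, and the most abundant, the interleukin-1 receptor kinase IRAK1, rose by 0.61 (adjusted p = 0.0018). EGR1, a zinc finger factor of the PTGES promoter, was under the filter at mean levels of 0.815 FPKM in shCtrl and 0.406 FPKM in shNAT10 cells. IL1A (0.055 and 0.018 FPKM) and IL1B (0.068 and 0.084 FPKM) were also under it. A part of these genes in the level of PTGES was not tested.

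**Figure D2:**
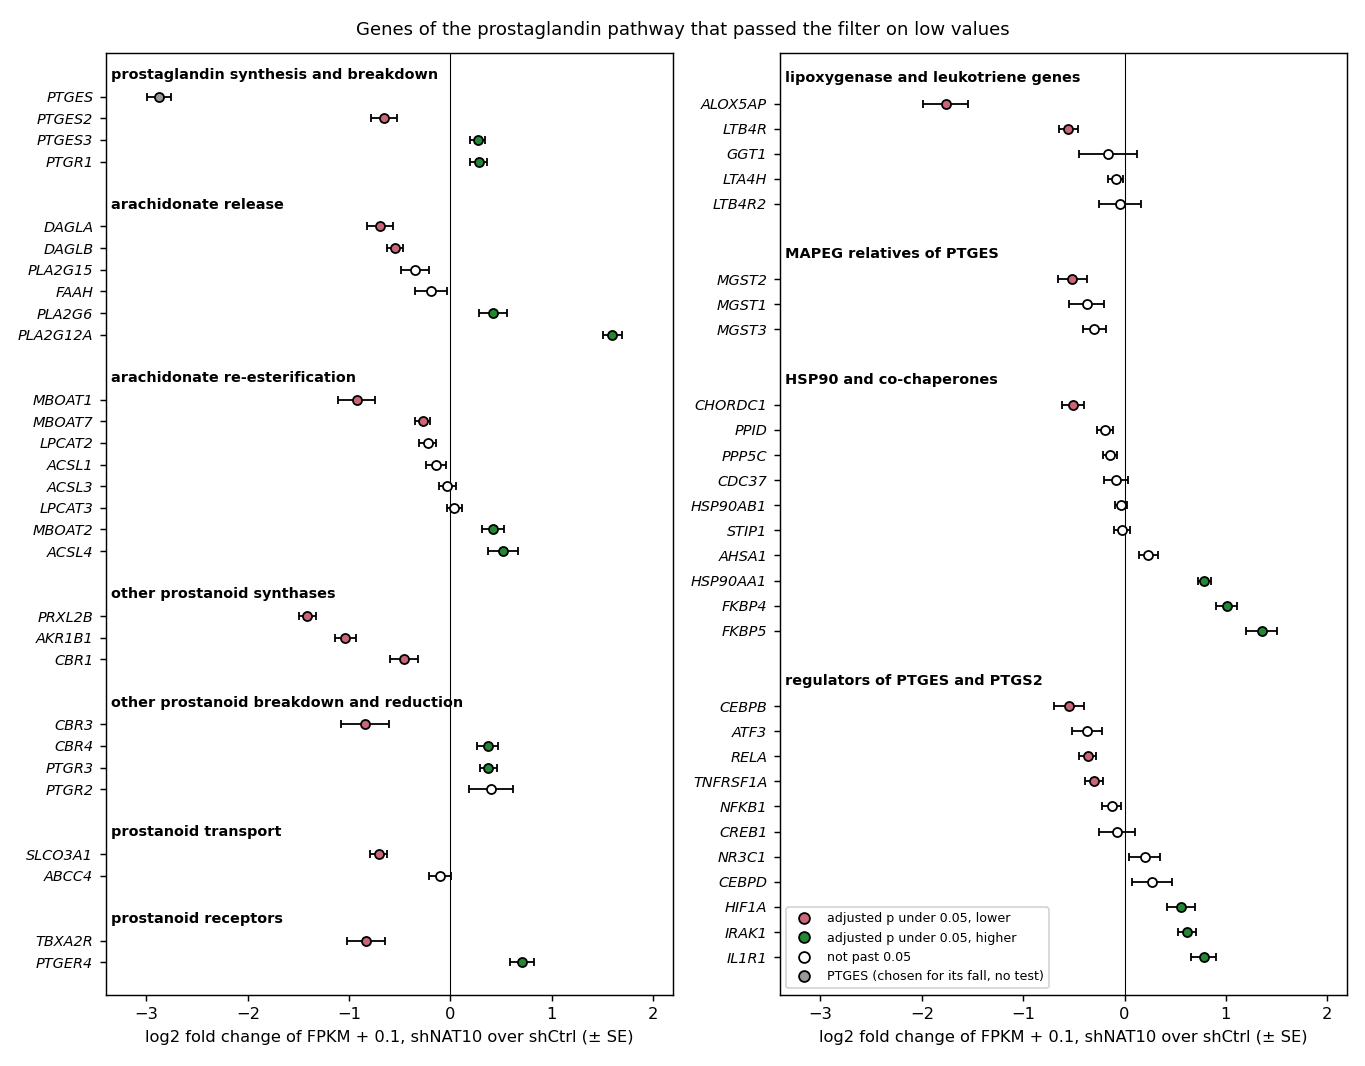
Log2 fold change of FPKM plus 0.1, shNAT10 over shCtrl, with its SE, for PTGES, PTGES2, PTGES3, PTGR1 and the 54 other pathway genes that passed the filter, sorted within each list, each gene drawn once. Red points fell and green points rose at an adjusted p under 0.05, white points did not pass, and the grey point at -2.88 is PTGES.

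The protein-coding genes whose course over the 6 libraries was most like that of PTGES were EPHB3, STING1, GM2A, IFIT2 and STRA6. Likeness was measured as the Euclidean distance of log2(FPKM + 0.1), set to 0 at the shCtrl mean, and was 0.47, 0.56, 0.60, 0.78 and 0.85 in that order. Their log2 fold changes lay between -2.79 for EPHB3 and -2.43 for STRA6, and IFIT2, for example, was at 11.1 FPKM in shCtrl and 1.78 FPKM in shNAT10 cells. EPHB3 was at 1.41 and 0.120 FPKM and STRA6 at 1.89 and 0.269 FPKM. The shNAT10 level of EPHB3 is close to the 0.1 added before the log, so its likeness depends on this addition. Its means differed 11.8-fold, beside 7.83-fold for PTGES. The nearest tested genes on the sides of PTGES on chromosome 9 had smaller differences. PRRX2, which ends 15656 bases before PTGES in coordinate order, fell by 0.67 (adjusted p = 0.02, limma), and TOR1B, which starts 50105 bases after it, was at -0.14 (adjusted p = 0.11). On the sides of PTGES2, SLC25A25-AS1 fell by 0.60 (adjusted p = 0.017) and BBLN fell by 0.88 (adjusted p = 0.0075), beside -0.65 for PTGES2 itself. ECPAS and DNAJC25 on the sides of PTGR1 rose by 0.32 and 0.39 (adjusted p = 0.014 and 0.046), while ATP5F1B and NACA beside PTGES3 were at 0.01 and -0.07 and did not pass (adjusted p = 0.88 and 0.55). No exon base of the 8 genes is shared with another annotated gene on either strand.

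In acRIP-seq, 5 of the 8 genes had a peak in shCtrl cells (PTGES, PTGS1, PTGS2, PLA2G4A and PTGR1) and 3 in shNAT10 cells (PTGES, PTGS1 and PTGR1), with overlap in all 3. Among all 19817 protein-coding genes 37.0% had a peak in shCtrl and 35.8% in shNAT10 cells. The 8 genes held 9 of the 16892 shCtrl peaks and 10 of the 15813 shNAT10 peaks. With 1 list per group there is no replicate check, so fold enrichments are given side by side without a test.

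The presence of a peak did not follow mRNA level among the 8 genes. PTGES3 and PTGES2, the 2 most abundant in shCtrl cells, had no peak in either group, although 63.9% of protein-coding genes at 100 FPKM or more and 71.5% of those at 20 to 100 FPKM had a shCtrl peak. PTGS1, PTGS2 and PLA2G4A had peaks at levels where 21.9% (0.1 to 1 FPKM) and 16.4% (above 0 and under 0.1 FPKM) of genes had one. HPGD had none.

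PTGES had 1 peak in each group, with the lengths given above. Its fold enrichment was 573 in shCtrl cells, above 85.9% of the peaks of that list, and 38.3 in shNAT10 cells, above 47.3% of the peaks. Counted from the smallest p-value, it ranked 8840 in the shCtrl list and 15009 in the shNAT10 list. By p-value the shNAT10 version was thus near the weak end of its list. The overlapping 149 bases are 50% or more of each version. The mRNA level in the RNA-seq also differed 7.83-fold between the groups, and its part in the lower enrichment was not tested.

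PTGS1 carried the strongest peaks of the 8 genes in both groups despite its low mRNA. In shCtrl cells 4 peaks covered 71.5% of its transcript, with fold enrichments of 9380, 2900, 1240 and 295. In shNAT10 cells 7 peaks covered 74.1%, with fold enrichments from 119 to 12900. The largest shCtrl peak, 2370 bases from the coding sequence into the 3′ UTR, ranked 44 of 16892 by p-value, and 6 of the 7 shNAT10 peaks lay over it or over another shCtrl peak. Genes of low mRNA level had high fold enrichments in general, with a median of 326 over shCtrl peaks on genes at 0.1 to 1 FPKM and of 4.86 at 100 FPKM or more. Of 19 markers of other cell types with a mean under 1 FPKM in both groups, 4 had a peak in shCtrl and 8 in shNAT10 cells. Over the bins under 1 FPKM, 6.86% to 21.9% of protein-coding genes had a shCtrl peak and 6.64% to 23.3% a shNAT10 peak. PTPRC, a marker of leukocytes, reached fold enrichments of 2500 in shCtrl and 3560 in shNAT10 cells, and PECAM1, of endothelial cells and platelets, 1880 and 5910. The RNA-seq libraries were made from captured mRNA and the acRIP libraries from total RNA without rRNA, and the part of that in these values was not tested. The RNA-seq values hence do not show which RNA the PTGS1, PTPRC and PECAM1 peaks were read from, and the fold enrichments of PTGS1 are not tied here to an mRNA level of these cells.

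PTGS2 and PLA2G4A had peaks in shCtrl cells only. On PTGS2 it was 300 bases of the 3′ UTR with a fold enrichment of 432, and on PLA2G4A it was 181 and 330 coding bases with fold enrichments of 738 and 270. With at most 4 reads of either gene in any RNA-seq library, the lists show enrichment on RNAs that the RNA-seq barely registered, and the absence of a peak in shNAT10 cells has no replicate behind it.

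PTGR1 had peaks of low fold enrichment at a high mRNA level. Counted from the smallest p-value, its shCtrl peak ranked 10218 in its list and its shNAT10 peaks ranked 6751 and 7824 in theirs. In shCtrl cells 1 peak of 418 bases had a fold enrichment of 9.51, above 19.7% of its list. In shNAT10 cells a peak of 269 bases within it had 16.4, above 31.3% of its list, and a second one of 180 bases nearer the 3′ end had 18.4. The median over peaks on genes at 20 to 100 FPKM was 14.7 in shCtrl and 13.3 in shNAT10 cells. PTGR1 lies at the lower edge of this bin, with a mean of 21.9 FPKM over the 6 libraries and 19.8 FPKM in shCtrl cells. On genes at 5 to 20 FPKM the median was 60.0 in shCtrl and 55.7 in shNAT10 cells. The peaks of PTGR1 were thus of the order of the median in its own bin and below that of the next lower bin.

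**Figure D3:**
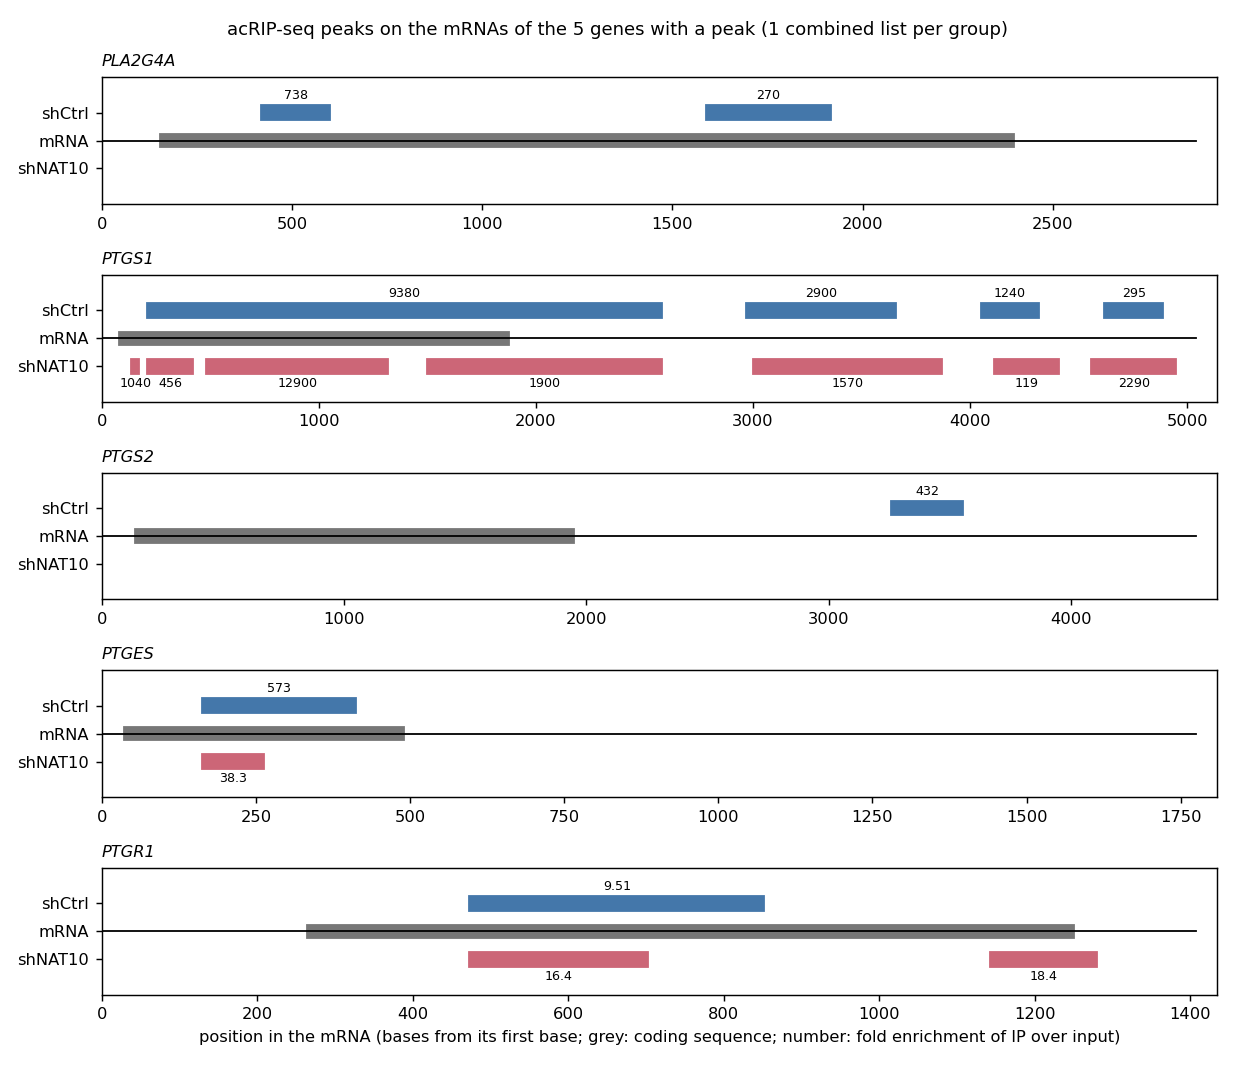
Peaks on the mRNAs of the 5 genes that had one, drawn to scale along the transcript with the longest coding sequence (grey box), with shCtrl peaks above and shNAT10 peaks below and the fold enrichment of IP over input as a number. PTGES and PTGR1 overlap in their first part, PTGS1 is covered over most of its length in both groups, and PTGS2 and PLA2G4A have shCtrl peaks only; bases outside the drawn transcript, such as those of PTGES in the exon of its non-coding transcript, are not shown.

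**Figure D4:**
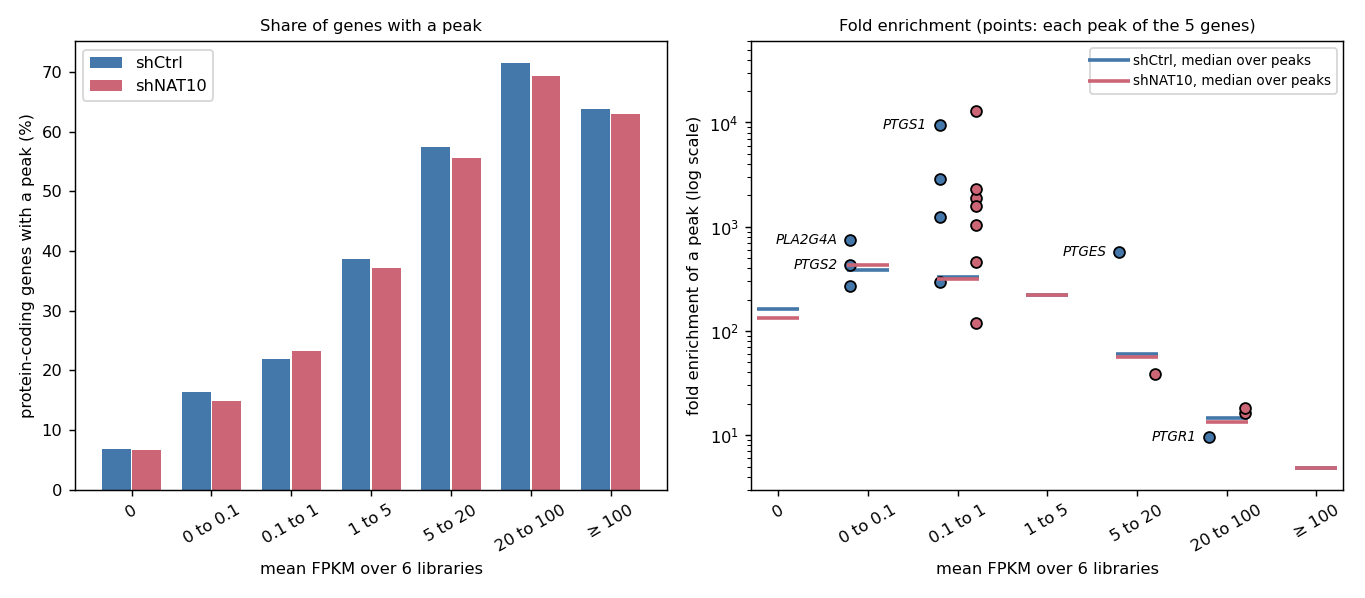
Left, the share of protein-coding genes with a peak by mean FPKM, which rises from 6.86% of genes at 0 to 71.5% at 20 to 100 FPKM in shCtrl cells. Right, on a log axis, the median fold enrichment over peaks in each bin (short lines) and every peak of the 5 genes (points). Of the 11 PTGS1 peaks 9 lie above the median of their bin. PTGES lies above the median of its bin in shCtrl (573 against 60.0) and below it in shNAT10 cells (38.3 against 55.7). Bins use the mean over the 6 libraries, which for PTGES is 5.76 FPKM, between its group means of 10.2 and 1.30 FPKM. In the bin from 1 to 5 FPKM, which holds its shNAT10 mean, the shNAT10 median was 223.

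Among the 54 tested pathway genes outside the 8, 35 had a shCtrl peak and 37 a shNAT10 peak, 27 of them in both groups. Among protein-coding genes from 1 FPKM up, the share with a peak ranged over the bins of level from 38.6% to 71.5% in shCtrl and from 37.1% to 69.4% in shNAT10 cells. NAT10 itself had 3 shCtrl peaks, the strongest at 210, and no shNAT10 peak.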

How the data were processed

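RNA-seq covered 3 shCtrl and 3 shNAT10 libraries of PANC-1 cells, and acRIP-seq 3 IP and 3 input libraries per group. Groups follow the labels. The authors deposited 1 table of FPKM values with a column per library, and the submitters' processing notes name HISAT2, HTSeq 0.11.0, DESeq2 1.22.2 and build GRCh38 (hg38), without their roles. The acRIP-seq files, 1 peak list for each group, were deposited with a p-value for every peak, the log10 of that p-value, whose range led to its being treated as a score here, and a fold enrichment as a ratio. The peak caller is not given in the sources used here. A further column of the lists, the log of the false discovery rate, was not used. Certain items are not reported here.

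The 8 genes were found by symbol in the table, and gene identifiers were matched to GENCODE v29 (GRCh38), which holds 58039 of the 58302 identifiers. FPKM times length and library total gave whole reads for 99.9% of values above 0, within 0.001 reads, and totals of 15831720 to 23521762 reads per library. These reads entered the voom alternatives and the counts printed beside low genes. The 12982 genes that reached 1 FPKM in 3 or more libraries were fitted on log2(FPKM + 0.1) with limma 3.58.1 in R 4.3.3, with a mean-variance trend, all 6 libraries and Benjamini-Hochberg adjustment over all genes tested. A fold change on this scale understates the change of low genes. A gene passed at an adjusted p under 0.05. Exact permutation tests used SciPy 1.17.1 under Python 3.11.15. Peak starts were moved to count from 1, and peaks on the same strand sharing at least 1 base were taken to overlap. The scripts were tested on simulated data.

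The 8 genes and the gene lists were chosen with earlier results of these data known. Named pathway genes are those that passed with a log2 fold change beyond 1 and the most abundant of each list, and 5 genes nearest to PTGES; other listed genes were named after their values were seen. Alternatives were a pseudocount of 1, no filter, TPM, quantile normalization, a replicate block, centring on the median, a minimum of 5 FPKM, no trend, voom on recovered reads, each library left out, the 50% of each peak list with the lowest p-values or highest fold enrichment, and a reciprocal overlap of 50%. Voom on genes with at least 10 reads was added after the data had been seen.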

Additional observations from a re-analysis of the deposited data

How the results depend on the processing

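The lower level of PTGES2 kept its call under all 16 alternatives, between -0.75 and -0.52, and NAT10 stayed between -1.88 and -1.74. The log2 fold change of PTGES lay between -2.96 and -2.28, the last with a pseudocount of 1. The number of the other 7 genes that were higher, 2 as reported, was 0 with no filter and ranged from 0 to 2 with a library left out (2 only without shCtrl replicate 2, 1 without shCtrl replicate 1, otherwise 0); with no filter PTGES3 had an adjusted p of 0.078 and PTGR1 of 0.053 (limma), and 29695 genes were tested. The number of pathway genes that fell, 17 as reported, was 11 with a minimum FPKM of 5 and ranged from 11 to 21 with a library left out, and the number that rose, 13 as reported, from 8 to 13. Leaving out shNAT10 replicate 3 gave the lowest counts of both, 11 and 8, and leaving out shCtrl replicate 3 also gave 11 that fell. Over all genes the counts with a library left out ranged from 1766 to 3182 lower and from 1717 to 3311 higher, against 2751 and 2699; the lower count was 1785 without shCtrl replicate 3 and 1766 without shNAT10 replicate 3, and the higher count 1774, 1717 and 1736 without shNAT10 replicates 1, 2 and 3.

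With a replicate block the log2 fold changes stayed at -0.65, 0.27 and 0.28 for PTGES2, PTGES3 and PTGR1 (adjusted p = 0.009, 0.034 and 0.043, limma), and 2603 genes were lower and 2524 higher. The deviations of same-numbered libraries from their group means correlated at -0.04, 0.06 and 0.11. The last value, for library 3 of each group, was the highest of all pairs, while shCtrl library 1 correlated more with shNAT10 library 3 (0.06). With 3 libraries per group, each centred on its group mean, these values do not settle whether the numbers pair the samples.

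Keeping the 50% of peaks with the smallest p-values changed the acRIP counts. It left 2 of the 8 genes with a shCtrl peak and 1 with overlapping peaks. Keeping the 50% with the highest fold enrichment left 1 with a shNAT10 peak and 1 with overlapping peaks. PTGS1 was in all of these. PTGES lost its peak in both groups in the setting by p-value, and its shNAT10 peak in the setting by fold enrichment. A reciprocal overlap of 50% left all 3 counts as they were. Reads limit PTGS1, PTGS2, PLA2G4A and HPGD, at no more than 65 per library. The cause of these shifts was not tested, beyond fewer genes or samples in a fit.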
